A study of Mus musculus with 13 samples.

Results

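The genes described here encode the receptor subunits through which neurons respond to glutamate and GABA, measured by RNA sequencing in the mouse olfactory bulb after exposure to fine airborne particles (PM2.5). They were chosen by symbol alone, from the naming series of the AMPA (Gria), kainate (Grik), delta (Grid), NMDA (Grin) and metabotropic (Grm) glutamate receptors, the GABA-A receptor subunits (Gabr) and the GABA-B subunits (Gabbr). The symbols selected 47 of the 34745 genes in the table, and 40 of them had counts high enough to be tested among 17467 genes. The AMPA family had 4 genes, the kainate family 5, the delta family 2, the NMDA family 7 and the metabotropic family 8. GABA-A alpha subunits had 6 genes, beta subunits 3, gamma subunits 3, the remaining GABA-A subunits (delta, epsilon, pi, theta and rho) 7 and GABA-B 2.

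Ionotropic glutamate receptors are cation channels that carry fast excitation, with AMPA receptors opening first and NMDA receptors admitting calcium once the membrane is depolarised. GABA-A receptors are chloride channels built from alpha, beta and gamma or delta subunits and carry fast inhibition, whereas metabotropic glutamate receptors and the GABA-B receptor act through G proteins on a slower scale. In the olfactory bulb, mitral and tufted cells release glutamate onto the dendrites of granule cells, which release GABA back onto the same dendrites, so both receptor groups sit at one reciprocal synapse.

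The 13 libraries, 1 per sample, came from wild type C57BL/6 mice, described as male and labelled as 7 to 8 weeks old, and belonged to 2 sets. The 1st set held 4 untreated control samples and 3 samples of mice given PM2.5 at 3 mg/kg with the time note "3 day". The 2nd set held 3 untreated control samples and 3 samples of mice given PM2.5 at 10 mg/kg with the same note. The sources used here do not say what divides the sets, how the particles were given or what the time note covers. Each dose was therefore compared only with the controls of its own set, and dose and set cannot be told apart. The labels number the samples without saying how the animals were housed or pooled, and p-values therefore measure the spread between these samples, which may be technical.

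Library totals ran from 13032834 to 14665696 counts in the 1st set and from 15387870 to 26989267 counts in the 2nd. Against the description of the mice as male, every 1st-set library carried the female-specific transcript Xist, at 2245 to 2712 CPM (counts scaled to library size with TMM factors), where 2nd-set libraries had 0.0992 to 0.555 CPM. Sums of 4 Y-linked genes ran the other way, with at most 0.210 CPM among the 7 libraries of the 1st set and 177 to 230 CPM among the 6 of the 2nd. The 2 deepest libraries, control replicate 2 and high-dose replicate 3 of the 2nd set, had the lowest receptor content, 0.704% and 0.715% of their counts against 0.813% to 0.913% in the other 11. High-dose replicate 3 also had more Tbr1, a cortical projection neuron marker that mitral and tufted cells share, at 56.0 CPM against 27.4 to 27.7 CPM in the other high-dose libraries and 18.3 to 23.1 CPM in their controls. Markers of the labelled tissue were present in every library, with the mitral and tufted cell gene Cdhr1 at 534 to 820 CPM and Tbx21 at 24.4 to 43.5 CPM.

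Receptor subunits were abundant relative to the rest of the transcriptome. In the 7 control libraries, 25 of the 47 averaged above 10 FPKM (a level per gene length and library size), 12 lay from 1 to 10 FPKM and 10 lay below 1 FPKM. The median of the 47 was 11.7 FPKM, and 12.2% of all genes and 24.3% of the genes tested were above 10 FPKM. Levels of different subunits are compared below only on this length-corrected scale.

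The genes not tested were Gabra6, Gabrp, Gabrr1, Gabrr2, Gabrr3, Grin3b and Grm6. Gabra6, the alpha subunit typical of cerebellar granule cells, had 1 read in 1 library and none in the other 12. Grm6, the metabotropic receptor of retinal ON bipolar cells, had no read in any library, which allows up to 3 counts, or 0.116 to 0.227 CPM according to depth. The rho subunits Gabrr1, Gabrr2 and Gabrr3, known from the retina, reached at most 11, 17 and 2 counts in a library, and Grin3b and Gabrp reached 7 and 9.

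Upstream sequence from RefSeq (mouse build GRCm38.p6) was listed for 32 of the 47 genes. Several starts were listed for 5 of these, and the most upstream was used, whereas counts over all windows include every listed start. The stretches below are the 250 bases before the start site, printed 5′ to 3′ on the strand of the gene with CG dinucleotides in capitals, because tested and untested subunits differed in their number. They belong to the all but silent Gabra6 (chr11:42321073-42321322, minus strand), to Gabra5, an alpha subunit among the abundant GABA-A genes of the bulb (chr7:57510060-57510309, minus strand), and to Gria4, among the most abundant subunits measured (chr9:4796235-4796484, minus strand).
Gabra6: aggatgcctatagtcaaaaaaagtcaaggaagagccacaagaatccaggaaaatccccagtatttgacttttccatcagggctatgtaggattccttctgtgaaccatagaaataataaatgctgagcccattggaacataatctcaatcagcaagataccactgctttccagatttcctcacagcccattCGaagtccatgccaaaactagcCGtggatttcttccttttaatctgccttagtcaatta
Gabra5: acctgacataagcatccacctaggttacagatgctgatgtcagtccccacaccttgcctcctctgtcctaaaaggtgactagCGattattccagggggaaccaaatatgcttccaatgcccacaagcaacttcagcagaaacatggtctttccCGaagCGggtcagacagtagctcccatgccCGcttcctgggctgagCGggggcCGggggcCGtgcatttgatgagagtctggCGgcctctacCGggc
Gria4: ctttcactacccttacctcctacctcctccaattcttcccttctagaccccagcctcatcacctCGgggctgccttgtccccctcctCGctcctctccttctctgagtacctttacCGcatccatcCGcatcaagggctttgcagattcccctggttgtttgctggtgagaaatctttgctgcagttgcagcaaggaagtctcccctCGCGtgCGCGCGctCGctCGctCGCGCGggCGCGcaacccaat
The Gabra6 stretch held 2 CG dinucleotides, that of Gabra5 held 9 and that of Gria4 held 16, clustered next to the start. Over the 25 tested subunits with a listed start the median was 16 CG dinucleotides (range 0 to 42), and 16 of them held 10 or more. Over the 7 that were not tested the median was 2 (range 1 to 7) and none held 10, while 37.8% of all 32851 listed windows did, with a median of 6. Gabra3, at 28.2 FPKM in controls, had no CG in its window, which belongs to the more upstream of its 2 listed starts. These counts are a description of the windows, with no test.

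Letters of 4 motifs were searched on both strands of the same windows. The cyclic AMP response element TGACGTCA and the AP-1 site TGACTCA were found in 0 of the 32 windows, against 1.55% and 4.46% of all windows. The NF-kB motif, searched as 1 fixed run of letters, was also found in 0, against 0.140% of all windows. The E-box CACGTG was found in 1, that of Grin1, against 6.02% of all windows. A missing match says only that these letters are not in this window.

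**Figure D1:**
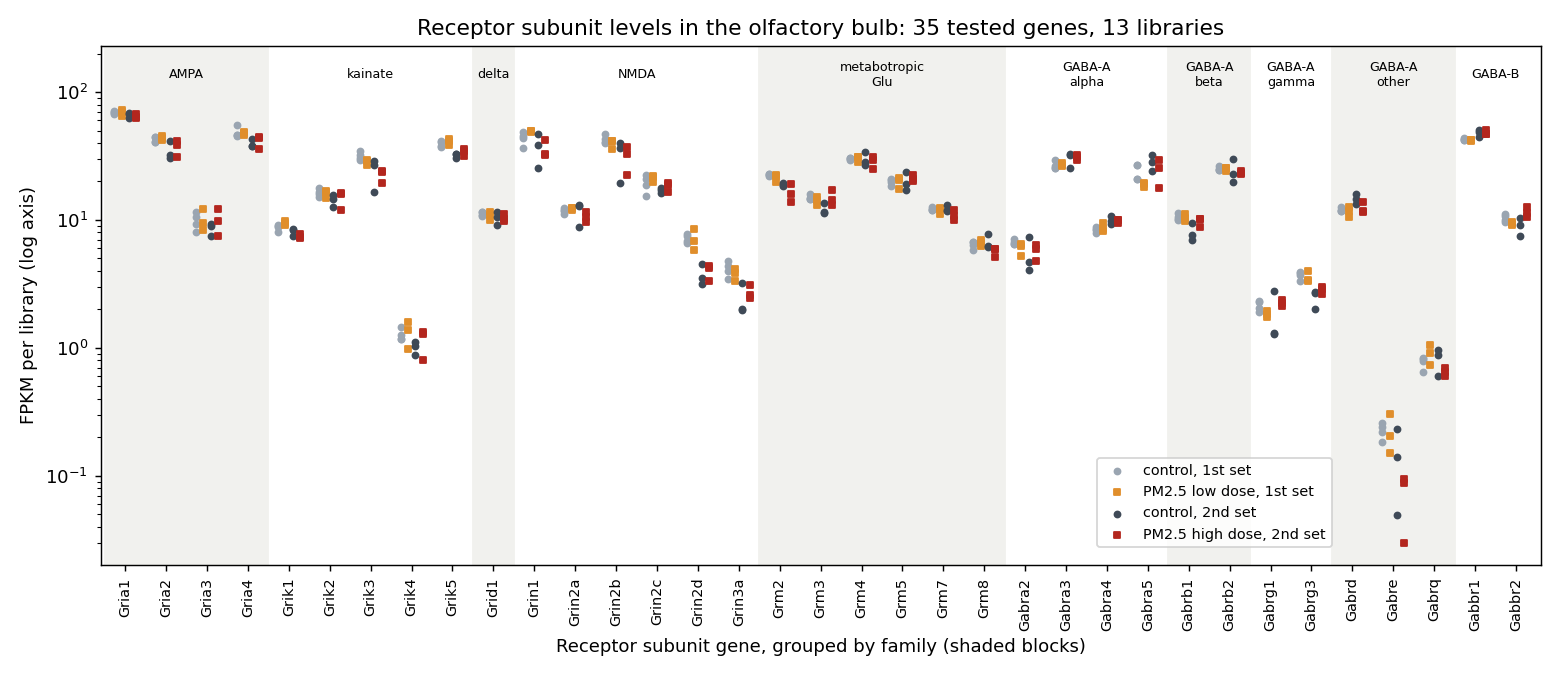
Level of 35 tested receptor subunits in FPKM (log axis) by family, with a point for each of the 13 libraries coloured by group. Gria1 stood highest, at a mean of 68.1 FPKM in the 7 controls, and most families had a subunit above 10 FPKM.

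Among AMPA receptor genes, which encode the main fast excitatory channel, Gria1 (GluA1) led with 70.1, 68.7, 67.5 and 71.8 FPKM in the 1st-set controls, 65.1, 70.5 and 72.7 FPKM at the low dose, 67.3, 62.3 and 69.2 FPKM in the 2nd-set controls and 62.7, 67.6 and 63.7 FPKM at the high dose. The groups overlapped throughout, and log2 differences from controls were 0.00 (low dose) and -0.04 (high dose), each with an SE of 0.07. Gria1 took 42.0% of the summed AMPA FPKM over the 13 libraries, Gria4 27.5%, Gria2, whose edited subunit makes AMPA receptors impermeable to calcium, 24.6%, and Gria3 5.93%. Gria3 had the smallest p of the family at the high dose, with 167, 142 and 173 CPM in controls and 225, 183 and 139.5 CPM after exposure. These values overlapped, and the log2 difference was 0.19 (SE 0.18, adjusted p = 0.852 in edgeR's quasi-likelihood test).

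Kainate receptors modulate transmitter release and excitability. Grik5 (GluK5), a high-affinity subunit that needs a low-affinity partner, held 41.5% of the family's FPKM and Grik3 30.2%, followed by Grik2 with 17.4%, Grik1 with 9.55% and Grik4 with 1.34%. Grik5 was at 38.2, 41.7, 40.7 and 37.3 FPKM in the 1st-set controls, 43.2, 38.9 and 41.1 FPKM at the low dose, 30.7, 33.01 and 32.9 FPKM in the 2nd-set controls and 34.5, 36.04 and 31.7 FPKM at the high dose. Its exposed libraries overlapped their controls at both doses, and on this scale all 6 libraries of the 2nd set lay below the 7 of the 1st. In CPM the sets overlapped, with high-dose replicate 2 at 252 CPM and 1st-set control replicate 4 at 249.7 CPM. Of the delta family, whose members organise synapses more than they conduct, Grid1 made up 91.8% of the FPKM. Grid1 stood at 10.9, 11.5, 11.6 and 10.7 FPKM in the 1st-set controls, 10.05, 11.5 and 10.9 FPKM at the low dose, 10.5, 9.17 and 11.5 FPKM in the 2nd-set controls and 9.76, 10.2 and 11.1 FPKM at the high dose, with every group overlapping the others.

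NMDA receptors pair the obligate subunit Grin1 (GluN1) with a GluN2 or GluN3 subunit that sets channel kinetics. Grin1 held 35.1% of the family's FPKM, Grin2b 31.0%, Grin2c 16.5%, Grin2a 9.90%, Grin2d 4.68% and Grin3a 2.81%. Grin1 was at 44.02, 45.6, 48.98 and 36.3 FPKM in the 1st-set controls, 49.2, 49.5 and 48.6 FPKM at the low dose, 38.4, 25.7 and 47.1 FPKM in the 2nd-set controls and 32.1, 42.1 and 32.5 FPKM at the high dose. Its exposed and control libraries overlapped in both sets. Exons of Grin1 overlap those of the opposite-strand gene Grin1os, and no source used here gives the strand setting of the counting, so reads of the pair cannot be told apart. Grin2b is the GluN2 subunit associated with slow currents and with newborn neurons. Exons of Grin2b also overlap opposite-strand genes (Gm14329, Gm22892 and Gm26653). Among the tested NMDA subunits Grin2b spread most between libraries of one group. Its controls of the 2nd set were 1116, 607 and 1224 CPM and its high-dose libraries 1145, 1000.5 and 694 CPM. The low value of each group belonged to one of the 2 deepest libraries, while the 1st-set controls were at 1281, 1187, 1211 and 1372 CPM. Grin2a had the smallest p of the family at the high dose, with 321, 229.6 and 327 CPM in controls and 292, 266 and 243 CPM after exposure, overlapping values with a log2 difference of -0.13 (SE 0.11, adjusted p = 0.817 in edgeR's quasi-likelihood test). The FPKM ratio of Grin2a to Grin2b was 0.277 ± 0.020 (SD, n = 4) in the 1st-set controls and 0.377 ± 0.071 (n = 3) in the 2nd, and after exposure 0.309 ± 0.027 (n = 3) and 0.351 ± 0.063 (n = 3).

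Metabotropic glutamate receptors were led by Grm4 (mGluR4), a presynaptic autoreceptor, with 25.7% of the family's FPKM. Grm5 and Grm2 followed with 17.6% and 17.3%, then Grm3 with 12.3%, Grm7 with 10.3% and Grm8 with 5.51%. Grm4 was at 30.4, 29.4, 30.3 and 29.7 FPKM in the 1st-set controls, 28.4, 31.3 and 31 FPKM at the low dose, 26.7, 28.4 and 33.8 FPKM in the 2nd-set controls and 29.3, 30.97 and 24.9 FPKM at the high dose. Exposed and control libraries overlapped in both sets. Grm5 couples to Gq, whereas Grm2, Grm3, Grm4, Grm7 and Grm8 inhibit adenylyl cyclase.

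Of the GABA-A alpha subunits, which shape GABA affinity and benzodiazepine response, Gabra3 held 28.7% of the FPKM, Gabra5 23.8%, Gabra4 9.22% and Gabra2 6.07%. Of the beta subunits, Gabrb2 held 41.9% and Gabrb1 16.7%.

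Of the gamma FPKM, Gabrg3 held 13.3% and Gabrg1 8.26%. Gabrg3 had the smallest p of the gamma subunits at the high dose, with 33.8, 25.7 and 32.8 CPM in controls and 35.6, 37.2 and 32.4 CPM after exposure, overlapping values with a log2 difference of 0.19 (SE 0.12, adjusted p = 0.701 in edgeR's quasi-likelihood test). Gabrd, the extrasynaptic subunit of tonic inhibition, accounted for 91.0% of the FPKM of the remaining GABA-A genes. The obligate GABA-B pair was unequal: Gabbr1, which binds GABA, held 81.7% of the summed FPKM and Gabbr2, which couples to the G protein, 18.3%. Gabbr1 was at 42.3, 42.9, 43.9 and 42.2 FPKM in the 1st-set controls, 41.9, 41.8 and 41.95 FPKM at the low dose, 44.9, 50.9 and 48.6 FPKM in the 2nd-set controls and 46.8, 47.2 and 50.3 FPKM at the high dose. On this scale the 3 low-dose libraries lay below the 4 controls by little, while in CPM they overlapped (log2 difference -0.03, SE 0.07). Exposed and control libraries of the 2nd set overlapped, and all 6 lay above the 7 of the 1st set.

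The low-dose comparison asked whether receptor transcripts differed between mice given 3 mg/kg and the controls of the 1st set. No receptor subunit was called at an adjusted p under 0.05 (0 of 40) by edgeR's quasi-likelihood test, and the background was 0% of the 17467 genes tested. At an unadjusted p under 0.05 the count was also 0 of 40, beside 2.46% of all genes (429). DESeq2 and limma-voom also called 0 subunits, with 1 and 0 at an unadjusted p under 0.05. The 40 log2 differences had a median of -0.01 and a median size of 0.04, against 0.00 and 0.09 over all genes tested, with 17 above 0 and 23 below. The 95% interval of the change lay within 1.5-fold in either direction for 36 of the 40 subunits, among them all 24 glutamate receptor genes, and within 2-fold for all 40.

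The subunit nearest the threshold at the low dose was Gabra5 (alpha5), which is concentrated outside synapses in the forebrain. Its controls were at 107, 106, 136 and 135 CPM and its exposed libraries at 92.1, 100.3 and 97.3 CPM. All 3 exposed libraries lay below all 4 controls, and the log2 difference was -0.33 (SE 0.15, adjusted p = 1 in edgeR's quasi-likelihood test). Grik3 also lay wholly below its controls, at 239, 258 and 259.6 CPM against 305, 288, 260.3 and 269 CPM, a log2 difference of -0.15 (SE 0.14). Grik1 lay wholly above, at 29.2, 28.7 and 30.4 CPM against 27.8, 25.05, 27.03 and 27.8 CPM, a log2 difference of 0.13 (SE 0.08), while at the high dose it was at 23.2, 24.9 and 23.5 CPM against 27.03, 24.5 and 26.3 CPM, with overlap (-0.12, SE 0.09). Groups that did not overlap were thus 1 of 40 above and 2 of 40 below, beside 3.71% and 2.91% of all genes tested. Exons of Gabra5 overlap the opposite-strand gene Gm9962.

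The high-dose comparison set mice given 10 mg/kg against the controls of the 2nd set. Again 0 of the 40 subunits passed an adjusted p under 0.05, while 112 of all genes tested did, 0.641%. DESeq2 and limma-voom called 0 as well, and the smallest adjusted p among the receptor genes was 0.181 in edgeR's quasi-likelihood test. At an unadjusted p under 0.05, 3 subunits were higher (Gabbr2, Grm3 and Gabrb1) beside 5.75% of all genes, and 2 were lower (Grm8 and Gabrd) beside 3.89%. The 5 of 40 are given below with their values, and none is described as changed.

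Gabbr2 (ENSMUSG00000039809, chr4:46662305-46991873, minus strand, mm10) was at 76.4, 57.4 and 67.3 CPM in the 3 controls and 84.5, 78.5 and 95.3 CPM in the 3 exposed libraries. All exposed values lay above all control values, with a log2 difference of 0.36 (SE 0.11, 95% interval 0.14 to 0.59, adjusted p = 0.181 in edgeR's quasi-likelihood test). Low-dose libraries were at 69.8, 68.3 and 66.5 CPM against 77.4, 72.8, 79.98 and 69.2 CPM in their controls, which overlapped (log2 difference -0.13, SE 0.10). The ratio of Gabbr2 to Gabbr1 FPKM was 0.188 ± 0.041 (SD, n = 3) in the 2nd-set controls and 0.239 ± 0.015 (n = 3) at the high dose, and 0.242 ± 0.012 (n = 4) and 0.225 ± 0.0063 (n = 3) in the 1st set. The low ratios were those of control replicates 2 and 3 of the 2nd set, at 0.147 and 0.187.

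Grm3 (mGluR3), which astrocytes express as well as neurons, was at 41.6, 36.1 and 35.6 CPM in controls and 44.3, 40.7 and 53.1 CPM after the high dose. Exposed replicate 2 lay below the highest control, so the groups overlapped, and the log2 difference was 0.29 (SE 0.11, adjusted p = 0.360 in edgeR's quasi-likelihood test). Gabrb1 (beta1) was at 135, 101 and 107 CPM in controls and 144, 145 and 124 CPM after exposure, a log2 difference of 0.27 (SE 0.11, adjusted p = 0.389). Its groups overlapped through control replicate 1 and exposed replicate 3, and 2 of the 3 exposed values lay within the range of the 1st-set controls, 140.1, 146, 138 and 155 CPM.

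Grm8 (mGluR8, chr6:27275119-28135178, minus strand), a presynaptic receptor, was at 79.1, 80.7 and 97.7 CPM in controls and 76.02, 75.9 and 65.3 CPM after the high dose. All exposed values lay below all controls, although by little for 2 of the 3, and the log2 difference was -0.25 (SE 0.10, adjusted p = 0.401 in edgeR's quasi-likelihood test). Gabrd was at 50.6, 62.2 and 54.7 CPM in controls and 44.8, 44.3 and 52.3 CPM after exposure, overlapping values with a log2 difference of -0.24 (SE 0.10, adjusted p = 0.435). Gabbr2 alone lay wholly above its controls, 1 of 40 beside 6.08% of all genes tested, and Grm8 alone wholly below, 1 of 40 beside 4.36%.

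These values moved when the libraries that stood apart were left out. Without high-dose replicate 3 and control replicate 2 together, a setting chosen after seeing the data, the log2 difference of Gabbr2 was 0.17 (adjusted p = 0.553 in edgeR's quasi-likelihood test), that of Grm3 0.13 (adjusted p = 0.744) and that of Gabrb1 0.25 (adjusted p = 0.395). Grm8 and Gabrd were then at -0.23 and -0.25. Single libraries moved Gabbr2 to 0.24 and Gabrb1 to 0.17 (without control replicate 2), Grm3 to 0.18 (without exposed replicate 3) and Grm8 to -0.14 (without control replicate 3) or -0.16 (without exposed replicate 3). Without control replicate 1, in contrast, Gabrb1 was at 0.42 (adjusted p = 0.0843) and Gabbr2 at 0.48 (adjusted p = 0.0659). Without control replicate 1 of the 2nd set, 1 subunit was called, Gabrg1, a gamma subunit expressed in glia as well as neurons, beside 0.689% of all genes. Its log2 difference was then 0.79 (adjusted p = 0.0123 in edgeR's quasi-likelihood test) instead of 0.33 (adjusted p = 0.737). Gabrg1 was at 30.6, 14.6 and 14.4 CPM in the controls and 24.8, 23.5 and 26.2 CPM at the high dose, so the first control lay above all exposed libraries and the other 2 below them.

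**Figure D2:**
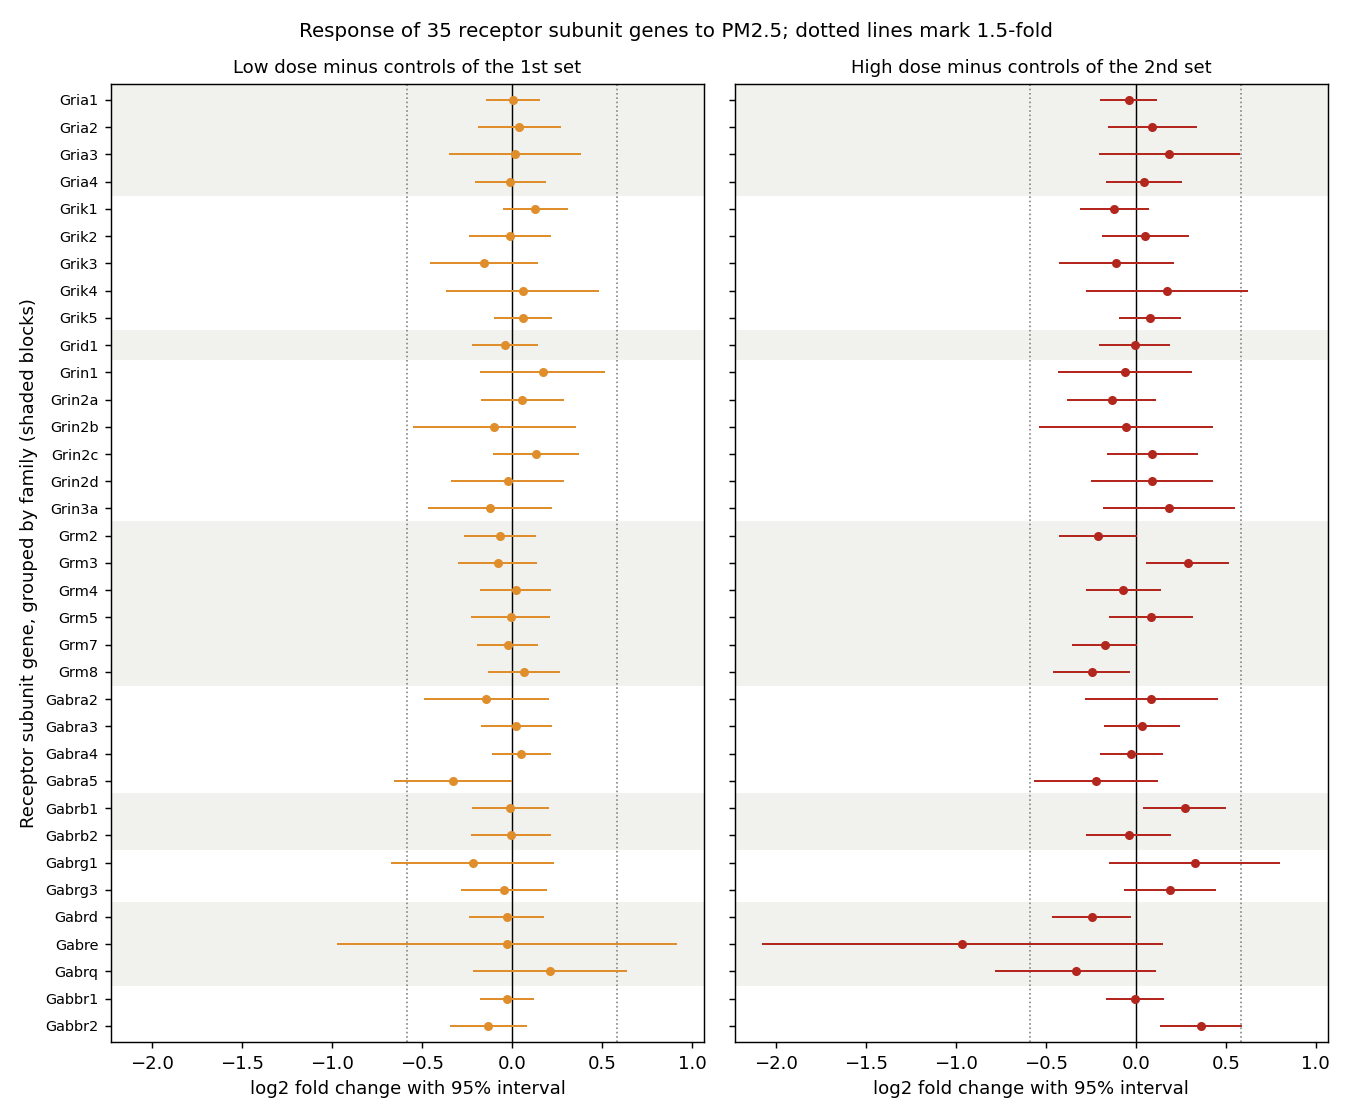
Log2 difference of 35 tested subunits from the controls of its own set, with 95% interval, at the low and the high dose, grouped by family. No subunit passed the adjusted threshold at either dose, and the widest interval was that of the scarce Gabre.

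**Figure D3:**
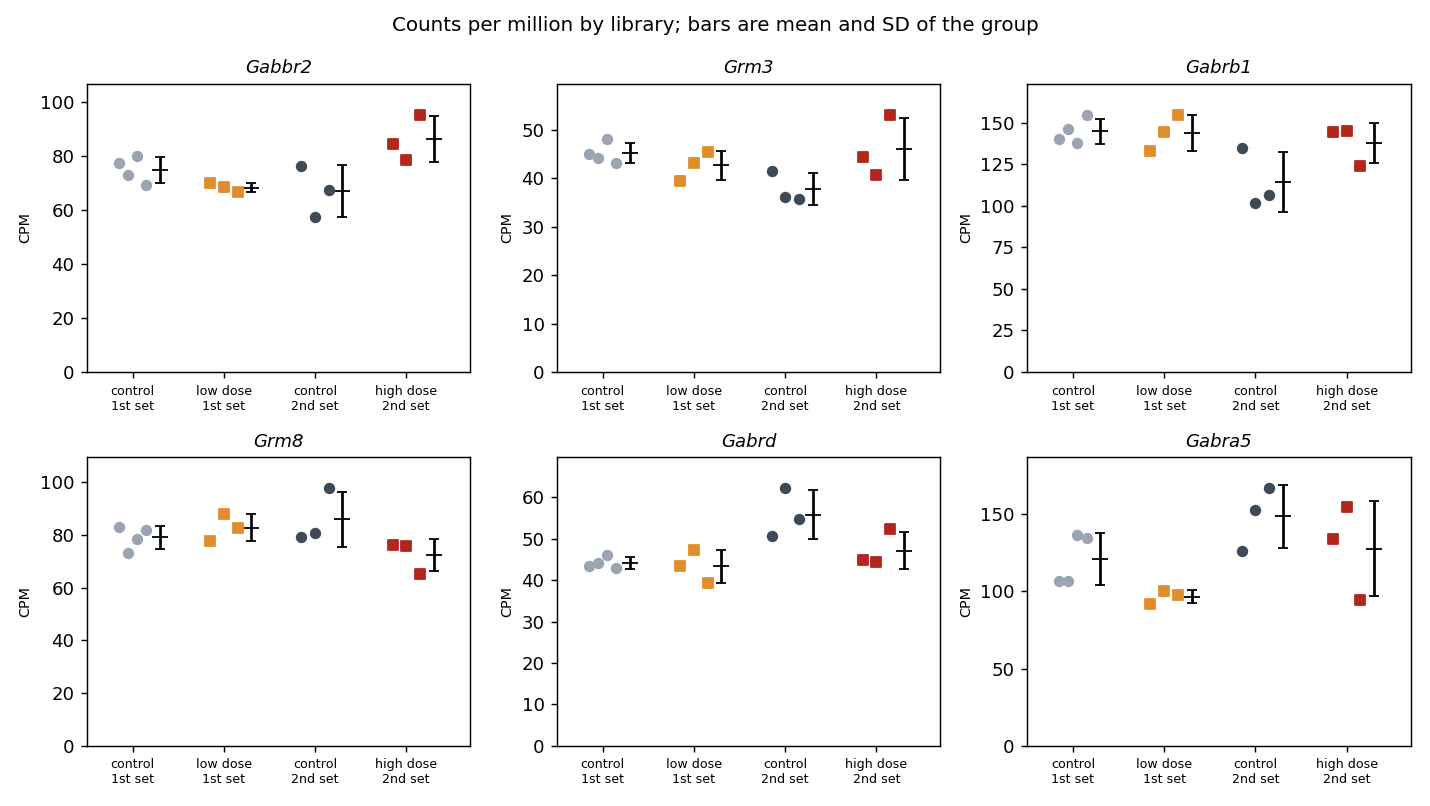
CPM in each library for Gabbr2, Grm3, Gabrb1, Grm8, Gabrd and Gabra5, with mean and SD of each group. The high-dose points of Gabbr2 lie above and those of Grm8 below their controls, and the low-dose points of Gabra5 lie below theirs.

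The intervals give the size of change that the data leave within reach, if all 4 groups share 1 spread as the fit assumed. For Grin2b, control and exposed SDs were 83.2 and 97.1 CPM in the 1st set but 329 and 230 CPM in the 2nd. Its SE was nevertheless similar, 0.21 (low dose) and 0.22 (high dose). For Gria1 the SDs were 17.8 and 50.1 CPM in the 1st set and 29.4 and 31.7 CPM in the 2nd. High-dose intervals may thus be too narrow for subunits that spread like Grin2b, and the counts within 1.5-fold and 2-fold too high. At the high dose the 95% interval lay within 1.5-fold in either direction for 34 of the 40 subunits, 85.0%, against 56.8% of all genes tested, and within 2-fold for 39. The exception was Gabre (epsilon), with 3 to 22 counts per library and a log2 difference of -0.96 (95% interval -2.08 to 0.15). Receptor genes were also more highly expressed than most. Among genes with a mean of 10 to 300 CPM, the median size of the log2 difference was 0.11 for the 31 subunits and 0.10 for the 10430 genes at the high dose, and 0.04 and 0.06 at the low dose.

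Receptor families were then contrasted. At the high dose the median log2 difference was 0.07 for AMPA, 0.05 for kainate, 0.05 for delta, 0.02 for NMDA and -0.07 for metabotropic glutamate receptor genes. It was -0.03 for GABA-A alpha, -0.04 for beta, 0.19 for gamma, -0.33 for the 3 tested remaining GABA-A genes and 0.18 for the 2 GABA-B genes, beside -0.01 for all genes tested. Of the 24 glutamate receptor genes 13 were above 0, with a median of 0.05, and of the 16 GABA receptor genes 6 were above 0, with a median of -0.03. At the low dose 12 of the 24 and 5 of the 16 were above 0, with medians of 0.00 and -0.02. The signs were not stable: across 24 alternative analyses of the high dose, the median of the 17 ionotropic glutamate genes ran from -0.03 to 0.10 and that of the 14 GABA-A genes from -0.15 to 0.07.

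Summed levels per family were compared on the length-corrected scale. AMPA genes summed to 149 ± 11 FPKM (SD, n = 3) in the 2nd-set controls and 153 ± 13 (n = 3) at the high dose, and to 170.3 ± 7.4 (n = 4) and 170.8 ± 6.6 (n = 3) in the 1st set. NMDA genes summed to 104 ± 24 and 102 ± 11 FPKM in the 2nd set and 129.0 ± 1.7 and 133.1 ± 3.8 in the 1st. GABA-A alpha genes summed to 110.1 ± 10.1 and 104.7 ± 3.0 FPKM in the 2nd set and 95.6 ± 6.3 and 90.13 ± 0.17 in the 1st. The difference between exposed and control means was smaller than the SD of the controls in each of these except NMDA in the 1st set, where the exposed mean was higher by more than that SD. The metabotropic genes summed to 120.4 ± 1.9 and 118.4 ± 8.4 FPKM in the 1st set, a difference above the SD of the controls but below that of the exposed libraries. The GABA-B pair summed to 53.2 ± 1.3 FPKM in controls and 51.32 ± 0.28 at the low dose, without overlap (51.9 to 54.9 against 51.1 to 51.6), and to 57.1 ± 1.7 and 59.6 ± 3.0 FPKM in the 2nd set, with overlap. These differences had opposite signs, and the first exceeded both SDs on this scale. In CPM, which use TMM factors, Gabbr1 and Gabbr2 each overlapped between the low-dose libraries and their controls. The remaining GABA-A genes, mostly Gabrd, summed to 15.7 ± 1.4 FPKM in the 2nd-set controls and 13.3 ± 1.2 at the high dose, a difference above both SDs with overlapping libraries, and to 13.28 ± 0.49 and 13.3 ± 1.2 in the 1st set. For kainate, delta, beta and gamma genes, and for metabotropic genes in the 2nd set, the means differed by less than the SD of the controls.

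Responses at the doses were compared directly. The high-dose response minus the low-dose response was called for 0 of 40 subunits, beside 1 gene of all tested, 0.00573%. At an unadjusted p under 0.05 it was Gabbr2 (0.50 on the log2 scale, SE 0.15, adjusted p = 0.580 in edgeR's quasi-likelihood test), Grm3 (0.37, adjusted p = 0.745) and Grm8 (-0.31, adjusted p = 0.788), 3 of 40 beside 5.99% of all genes. Without control replicate 1 of the 2nd set this difference was called for Gabrg1, 1 subunit beside 0.0339% of all genes, at 1.01 (adjusted p = 0.0447). A change common to both doses, the mean of the responses, was called for 0 of 40 subunits beside 0.492% of all genes. At an unadjusted p under 0.05 it was Gabra5 alone, -0.27 (SE 0.11, adjusted p = 0.619), 1 of 40 beside 6.45%. Without high-dose replicate 3 that value was -0.18 (adjusted p = 0.680). At the high dose Gabra5 was at 134, 155 and 94.2 CPM against 126, 153 and 167 CPM in controls, overlapping values with a log2 difference of -0.22 (SE 0.16).

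GABA-A genes lie in clusters, and log2 differences of both signs stood side by side on chromosomes 5 and 7 at the high dose. On chromosome 5, Gabrg1, Gabra2, Gabra4 and Gabrb1 differed at the high dose by 0.33, 0.09, -0.03 and 0.27 on the log2 scale, and at the low dose by -0.22, -0.14, 0.05 and -0.01. On chromosome 7, Gabrg3 (chr7:56716465-57387188) and Gabra5 (chr7:57407672-57510059) differed by 0.19 and -0.22 at the high dose and by -0.05 and -0.33 at the low dose. On chromosome 11, the all but silent Gabra6 (chr11:42306437-42321072) and the abundant Gabrb2 (chr11:42419757-42629028) are neighbours, and Gabrb2 differed by -0.04 at the high dose. None of these differences passed the test. Gabra4 (chr5:71569749-71658308, minus strand) and Gabrb1 (chr5:71658113-72149037, plus strand) overlap at their starts.

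Receptor genes were called between the unexposed libraries of the sets, where none was called at either dose. Between the 2nd-set and 1st-set controls 8 of the 40 subunits were called, beside 19.3% of all genes tested. Lower in the 2nd set were 5 (Grin2d, Grin3a, Gabrg3, Gabrb1 and Grik5) beside 8.74% of all genes, and higher were 3 (Gabra4, Gabrd and Gabbr1) beside 10.5%. The share of receptor genes called, 8 of 40, was close to the background. Since Xist marked the 1st set and Y-linked transcripts the 2nd, sex-linked expression, set and anything else that divides the sets cannot be told apart.

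Grin2d (GluN2D, chr7:45831883-45870928, minus strand), a subunit of slowly deactivating NMDA receptors found on interneurons, was at 46.9, 45.2, 39.4 and 40.8 CPM in the 1st-set controls and 27.9, 20.1 and 21.5 CPM in the 2nd. It was lower in all 3 libraries of the 2nd set (log2 difference -0.90, SE 0.15, adjusted p = 0.00224 in edgeR's quasi-likelihood test). Exons of Grin2d overlap the opposite-strand gene Gm45441. The exposed libraries lay near the controls of their set, with 34.7, 41.6 and 50.7 CPM at the low dose and 26, 27.2 and 20.6 CPM at the high dose. Grin3a (GluN3A), which lowers the calcium permeability of NMDA receptors, was at 79.2, 72.3, 63.01 and 85.2 CPM and 59.7, 38.7 and 36.7 CPM in the 1st-set and 2nd-set controls, without overlap (log2 difference -0.74, SE 0.16, adjusted p = 0.00904). Gabrg3 was at 44.8, 40.03, 46.7 and 45.99 CPM and 33.8, 25.7 and 32.8 CPM, also without overlap (-0.53, SE 0.11, adjusted p = 0.00723).

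Gabrb1 was at 140.1, 146, 138 and 155 CPM in the 1st-set controls and 135, 101 and 107 CPM in the 2nd, lower in every library of the 2nd set (log2 difference -0.34, SE 0.10, adjusted p = 0.0301 in edgeR's quasi-likelihood test). Grik5 was at 259, 284, 275 and 249.7 CPM and 213, 237 and 228 CPM, likewise without overlap (-0.24, SE 0.08, adjusted p = 0.0386). In the other direction, Gabra4, the alpha subunit that joins the delta subunit in extrasynaptic receptors, was at 69.3, 72.7, 74.3 and 75.8 CPM and 95.96, 90.6 and 83.4 CPM (0.30, SE 0.08, adjusted p = 0.0158). The delta subunit gene Gabrd was at 43.4, 44.3, 46.2 and 42.9 CPM and 50.6, 62.2 and 54.7 CPM (0.34, SE 0.10, adjusted p = 0.0254), and Gabbr1 at 549.5, 559.9, 569 and 542 CPM and 599, 699 and 646 CPM (0.22, SE 0.07, adjusted p = 0.0385). For all 3 of these genes the 2nd-set controls lay above every 1st-set control. Groups did not overlap for 3 of 40 subunits above and 10 of 40 below, beside 15.8% and 14.6% of all genes tested.

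**Figure D4:**
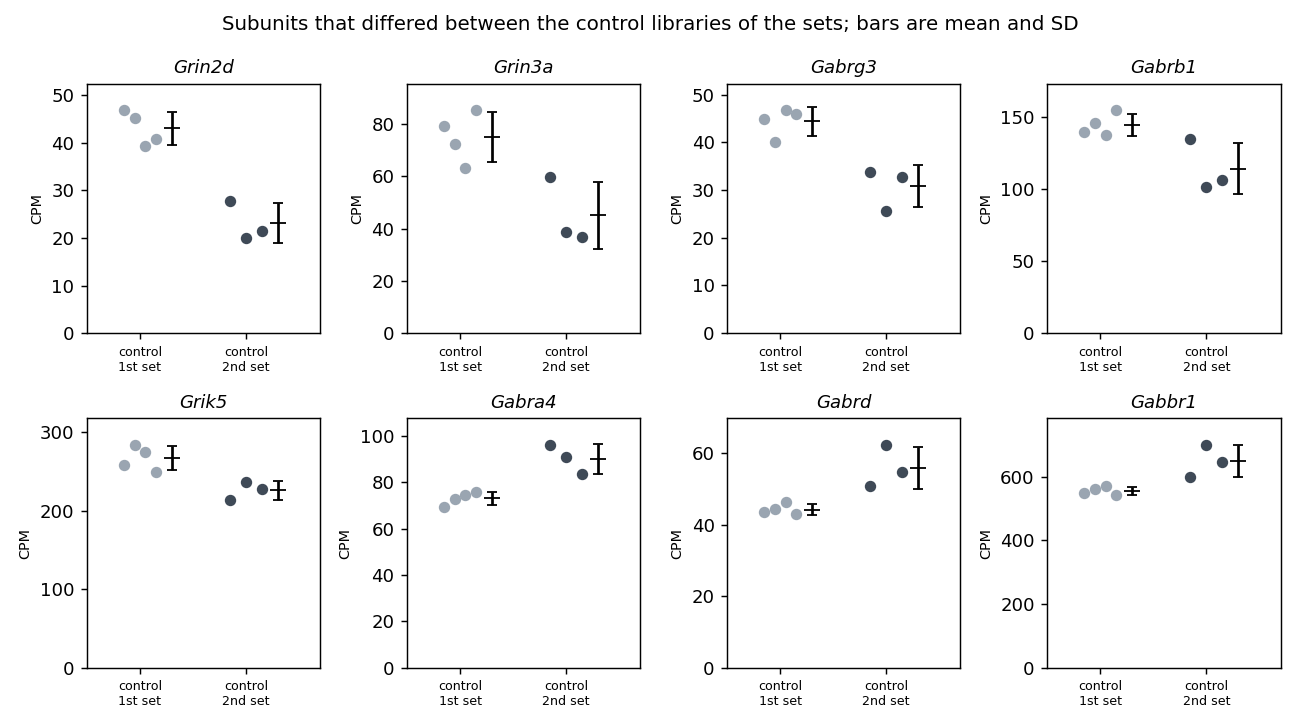
CPM in each control library for the 8 subunits that differed between the sets, with mean and SD of each group. The sets are separated for all 8, with the lower values in the 2nd set for Grin2d, Grin3a, Gabrg3, Gabrb1 and Grik5 and the higher ones for Gabra4, Gabrd and Gabbr1.

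Calls between the sets rested in part on single libraries. Grin2d and Gabrg3 were called in all 21 alternatives run, Gabra4 and Grin3a in 20. Gabrd was called in 17, Gabrb1 in 14, Grik5 in 12 and Gabbr1 in 11. Without control replicate 2 of the 2nd set the calls were 3 (Gabra4, Gabrg3 and Grin2d), beside 7.57% of all genes. In the 1st set, leaving out control replicate 1 or 2 gave 4 calls, beside 11.9% and 12.3%. Leaving out replicate 4 gave 5, beside 13.6%. With control replicate 1 of the 2nd set left out there were 11, beside 21.8%. Calls over all genes, 19.3% in the main fit, thus moved in the same direction as the receptor calls. Of the 17 ionotropic glutamate receptor genes tested, 16 were lower in the 2nd-set controls, with a median of -0.19 beside -0.02 for all genes, and 13 to 17 were lower across the 21 alternatives. Of the 14 GABA-A genes 8 were higher (7 to 9 across the alternatives), with a median of 0.09 that ran from -0.03 to 0.16. Without scaling beyond the library total 2 subunits were called higher and 7 lower, and all genes called split as 1354 higher and 1870 lower instead of 1837 and 1527.

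Partners of the receptors were read from lists of known genes. Of 13 AMPA and kainate receptor auxiliary subunits, which set trafficking and gating, 0 rose and 0 fell at either dose, with a high-dose median of -0.06. Cacng5 (TARP gamma-5) came nearest, at 293, 306 and 284 CPM in controls and 237, 268 and 232 CPM at the high dose, without overlap (log2 difference -0.26, adjusted p = 0.167 in edgeR's quasi-likelihood test). Shisa6, an AMPA receptor partner, was at 36.4, 18.05 and 23.3 CPM and 38.1, 46.1 and 25.4 CPM (0.50, SE 0.23, adjusted p = 0.520), with overlap. Of 15 excitatory scaffold genes 0 were called at either dose. The smallest p at the high dose belonged to Dlgap1, at 777, 788 and 948 CPM in controls and 702, 725 and 642 CPM after exposure (-0.28, adjusted p = 0.223), and to Grip2 at 178, 153 and 198 CPM and 157, 152 and 116 CPM (-0.32, adjusted p = 0.337). Dlgap1 lay wholly below its controls and Grip2 overlapped them.

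On the inhibitory side, 0 of 10 genes for GABA receptor scaffold and auxiliary proteins were called at either dose. The smallest p there belonged to Kctd12, a GABA-B auxiliary subunit, at 272, 211 and 146 CPM in controls and 218, 272 and 253 CPM at the high dose, and to the scaffold gene Gphn (gephyrin), at 125, 163 and 134 CPM and 127, 130.4 and 128 CPM. Both overlapped, with log2 differences of 0.24 and -0.13. Of 9 genes for GABA synthesis, release and uptake 0 were called at either dose. Gad1, the main GABA-synthesising enzyme, was at 2057, 2425 and 2146 CPM in controls and 1964, 1984 and 1682 CPM at the high dose, wholly below (log2 difference -0.24, adjusted p = 0.377 in edgeR's quasi-likelihood test). The vesicular GABA transporter Slc32a1 was at 271, 384 and 307 CPM and 267, 289.6 and 292 CPM, with overlap (-0.18, adjusted p = 0.650).

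Of the 8 tested genes for glutamate release, uptake and metabolism 0 were called at either dose. The astrocytic transporter Slc1a2 (GLT-1) was at 2014, 1294 and 1435 CPM in controls and 2008, 2238 and 1769.6 CPM at the high dose, with overlap (log2 difference 0.34, adjusted p = 0.389 in edgeR's quasi-likelihood test). The neuronal transporter Slc1a1 was at 163, 163 and 181 CPM and 153, 151 and 149 CPM, wholly below (-0.16, adjusted p = 0.501).

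Between the control sets, where 19.3% of all genes tested were called, 4 of the 13 auxiliary subunit genes were, 2 higher and 2 lower in the 2nd set. Cacng5 was at 234, 239, 234 and 243 CPM in the 1st-set controls and 293, 306 and 284 CPM in the 2nd, and Cacng8 at 59.03, 63.8, 61.3 and 56.1 CPM and 74.2, 72.8 and 77.8 CPM. Cacng4 was at 66.9, 66.3, 62.7 and 70.5 CPM and 57.6, 52.8 and 56.3 CPM, and Shisa6 at 57.4, 60.4, 49.4 and 61.7 CPM and 36.4, 18.05 and 23.3 CPM. The sets did not overlap for any of these genes, and Shisa6 had the widest gap (log2 difference -1.15, adjusted p = 0.00572 in edgeR's quasi-likelihood test). Of the 15 excitatory scaffold genes 4 were called, beside the same 19.3%. Dlg1 was at 113, 119.5, 128 and 128 CPM and 148, 157 and 156 CPM and Dlg3 at 214, 202, 206 and 212 CPM and 242, 270.1 and 260.0 CPM, both higher in the 2nd set. Shank1 was at 668, 668, 594 and 547 CPM and 515, 319 and 506 CPM and Grip1 at 84.7, 82.3, 82.1 and 86.9 CPM and 71.4, 61.2 and 73.4 CPM, both lower there.

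Of the 10 GABA receptor scaffold genes 3 were called between the control sets, beside 19.3% of all genes, and so were 1 of the 8 glutamate handling and 2 of the 9 GABA handling genes. Gabarap, which binds GABA-A receptors during their trafficking, was at 73.3, 75, 81.3 and 75.6 CPM in the 1st-set controls and 93.5, 129.7 and 88.98 CPM in the 2nd. Kctd12 was at 400.3, 398, 344 and 433 CPM and 272, 211 and 146 CPM, lower in the 2nd set (log2 difference -0.91, adjusted p = 0.00310 in edgeR's quasi-likelihood test). Of the GABA-B subunit genes, Gabbr1 was called higher there, while Gabbr2 was not called (log2 difference -0.16, SE 0.10). Among glutamate handling genes Slc1a1 was called, at 137, 129.7, 135 and 136 CPM and 163, 163 and 181 CPM. Among GABA handling genes Gad1 was called, at 1669, 1859, 1814 and 1885 CPM and 2057, 2425 and 2146 CPM, and so was Slc6a13, a GABA transporter of meninges and vessels, at 29.02, 26.7, 24.8 and 26.6 CPM and 17.3, 17.04 and 9.32 CPM. Slc1a1 and Gad1 were higher and Slc6a13 lower in the 2nd set, and Gabarap, Kctd12, Slc1a1, Gad1 and Slc6a13 did not overlap between the sets.

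Cell type markers were set beside the receptor values at the high dose. All 6 astrocyte markers were above 0, with a median log2 difference of 0.26, and 1 rose, Gfap, from 204, 247 and 181 CPM to 524, 646 and 450.4 CPM (1.36, adjusted p = 0.00171 in edgeR's quasi-likelihood test). Their summed level was 2569 to 3421 CPM in the 2nd-set controls and 3452 to 4071 CPM at the high dose. Grm3, Gabrb1 and Gabbr2 were also higher as groups. Single libraries did not share 1 order. Exposed replicate 2 had the highest Gfap and Gabrb1 of the high-dose libraries but the lowest Grm3 and Gabbr2. All 7 markers of granule cells and interneurons were below 0, with a median of -0.19 and none called. Their sum was 4935 to 5243 CPM in controls and 3917 to 4771 CPM after exposure. Gabrd and Grm8 were also lower as groups. Exposed replicate 3 had the lowest Gad1 and Grm8 of the high-dose libraries but the highest Gabrd. The 3 red blood cell genes were all above 0 (median 0.90, none called). They summed to 88.8 to 108 CPM in controls and 102 to 267 CPM after exposure. Of the 10 markers of neighbouring cortex and striatum 7 were above 0, with a median of 0.49, a range of -0.31 to 1.72 and none called. Their sum was 356 to 398 CPM in controls and 241 to 448 CPM after exposure. Oligodendrocyte, oligodendrocyte precursor, microglia, endothelium, mitral and tufted cell and sensory axon markers had high-dose medians of 0.01, 0.19, 0.19, 0.08, -0.09 and 0.15, with none called. No marker of astrocytes, granule cells and interneurons, red blood cells or cortex and striatum was at 0 counts in any library. The part of these markers in the receptor values was not tested. In whole-bulb RNA, fewer cells of a type and less RNA per cell cannot be told apart.

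At the low dose the 7 granule cell and interneuron markers were all above 0 (median 0.10) and summed to 4181 to 4546 CPM in controls and 4610 to 4858 CPM after exposure. The 6 astrocyte markers had a median of 0.02 and summed to 3152 to 3349 CPM and 3113 to 3442 CPM. The 3 red blood cell genes were all above 0 (median 0.58), and the 5 oligodendrocyte markers (median -0.21), 3 oligodendrocyte precursor markers (-0.12), 3 endothelial markers (-0.10) and 4 sensory epithelium and axon markers (-0.30) all below. Microglia, mitral and tufted cell and cortex and striatum markers had medians of 0.03, -0.01 and -0.07. None of these was called at the low dose. Between the control sets, where 19.3% of all genes tested were called, the 7 granule cell and interneuron markers were all higher in the 2nd set (median 0.26, 2 called). Gabra4, Gabrd and Gabbr1 went in the same direction, whereas Grin2d, Grin3a, Gabrg3, Gabrb1 and Grik5 went in the opposite one. The 3 oligodendrocyte precursor markers were all lower (median -0.40, 2 called), in the direction of the latter subunits and against the former. Of the 5 oligodendrocyte markers 1 was called higher, and of the 3 endothelial markers 1 was called lower. All 6 astrocyte markers were lower (median -0.16, none called) and all 3 red blood cell genes higher (median 0.57, none called). Their part in these differences was not tested.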

How the data were processed

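RNA sequencing of 13 mouse olfactory bulb samples was deposited as 1 table of the whole series with, for each sample, read counts per gene and FPKM (a level per gene length and library size). Per the labels' protocols, total RNA was extracted with an RNeasy kit and libraries were made with a stranded total RNA kit. Per the submitters' processing notes, HISAT2 and mm10 were used, without versions. The counter, annotation and strand setting are unstated. The FPKM values deposited by the authors were a fixed multiple of their counts in each gene and library, with a largest deviation of 1.89e-06 over 4149 genes checked. No value column lacked a sample (0 such columns).

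The receptor genes and all gene lists were chosen with earlier results of these data known. Counts were tested with edgeR 4.0.16 in R 4.3.3, by the quasi-likelihood test with TMM factors in 1 fit of 4 groups, after filterByExpr kept 17467 genes. P-values were Benjamini-Hochberg adjusted over all of these, and a gene was called at an adjusted p under 0.05. CPM values were counts scaled by TMM-adjusted library totals. Alternatives were other scalings and filters, DESeq2 1.42.0, limma 3.58.1 (voom on counts, or log2(FPKM + 1) and log2(FPKM + 0.1)), fits within each set, a replicate block and leaving out each library. Replicates were compared, and no pair held identical values or agreed within sampling noise. Coordinates are those of the table (mm10), matched for all 47 genes to a GENCODE M21 annotation. The calculation was also run on simulated data with planted changes, in which all groups shared 1 spread per gene. How many planted changes were recovered is not reported here, so the run does not show which changes could be found.

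Values per library are given for subunits called in any comparison, for those at an unadjusted p under 0.05 at either dose, and, in each family, for the most abundant subunit and the one with the smallest p at the high dose. From the lists of associated genes they are given for those called and the 2 with the smallest p at the high dose. Genes shown outside this rule are Grin2b, Gabrg1, Grik3, Gria4, Gabre and the marker genes, chosen after their values were seen. Values of some genes that this rule would name are not reported here, and those genes stay in the counts and medians.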

Additional observations from a re-analysis of the deposited data

Results flagged for a closer look

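Gria4, an AMPA receptor subunit, had 1 library far from the others in the controls of the 1st set. Its values were 279, 274, 279 and 331 CPM, and on the log2 scale the gap of replicate 4 to the nearest other library was 0.905 of the range of the group, above Dixon's 95% critical value for 4 samples. Such a gap was looked for in 40 receptor genes, and chance gives about 1 in 20 groups. The exposed libraries of that set were at 279, 292 and 295 CPM, between the highest control and the others.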

How the results depend on the processing

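No receptor subunit was called at the low dose, or for the mean of the responses, under any alternative run (0 in each, leave-one-out fits included). At the high dose and for the difference between the responses the count was 0 under every alternative except without control replicate 1 of the 2nd set, where it was 1 (Gabrg1), so leave-one-out counts ran from 0 to 1. Between the control sets the count of 8 ran from 3 to 11 when 1 library was left out, beside 7.57% to 23.0% of all genes. None of the fold changes followed for single genes reversed its direction, while the family medians at the high dose changed sign under some alternatives. Of the 8 genes called between the control sets, 6 lost the call under at least 1 alternative (Gabbr1, Grik5, Gabrb1, Gabrd, Gabra4 and Grin3a), and Grin2d and Gabrg3 kept it.

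With the replicate block, 0 subunits were called at either dose. Correlations of same-numbered deviations ran from 0.010 to 0.058 in the 1st set and from -0.318 to 0.135 in the 2nd. Differently numbered deviations in the 2nd set ran from -0.363 to 0.435. With so few libraries these values cannot decide whether replicate numbers pair the samples.

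Over all genes, calls at the high dose numbered 112 with the main settings, 277 with DESeq2, 69 with at least 1 CPM in every library, 4 in a fit within the set, 5 with the block and 21 to 138 with 1 library left out, the lowest when it was the third 2nd-set control. At the low dose they numbered 0, and 17 with DESeq2, 2 with limma-voom and 9 in the fit within the set. For the difference they numbered 1, and 10 with DESeq2 and 0 to 6 with 1 library left out. For the mean they numbered 86, and 190 with DESeq2, 44 with the CPM filter, 56 with limma-voom, 5 with the block and 36 to 93 with 1 library left out. Between the control sets they ran from 1340 to 4073 with 1 library left out. Groups of 3 or 4 libraries limit what could be called, and the scarce Gabre, with 3 to 22 counts, had the widest interval.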
